A study of Mus musculus with 10 samples.

Results

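The comparison described here is the effect of bisphenol A (BPA) given before birth on the uterus of ovariectomised mice that later received no estradiol. It rests on 5 of the 10 Illumina bead arrays of the series, chosen by their titles: 3 arrays of the BPA-vehicle group and 2 of the vehicle-vehicle group. BPA-vehicle offspring were CD-1 mice, an outbred stock, whose dams received BPA at 5 mg/kg per day by intraperitoneal injection from gestation day 9 to 21. Vehicle-vehicle offspring came from dams given the DMSO solvent over the same days. All were ovariectomised at 6 weeks of age, injected with DMSO at 8 weeks, and their uteri were taken 6 h later. Each array held RNA pooled by litter, so an array is a litter and not an animal; how many animals made a pool is not given in the sources used here. The other 5 arrays, 3 BPA-E2 and 2 vehicle-E2, came from offspring with the same exposures that were injected with 300 ng of estradiol (E2) in place of DMSO, and they are used to show where the effect without estradiol differs. p-values measure the spread between litter pools.

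Estradiol acts on the uterus through nuclear estrogen receptors, mainly ESR1 in mice. It first raises transcription factors, growth factors and the protein-making machinery, and later the secreted proteins of the luminal and glandular epithelium. Ovariectomy removes the ovarian source of estradiol, which usually lowers estrogen signalling in the uterus. BPA is a plastics monomer that binds estrogen receptors weakly, and exposure in the womb reaches the uterus while its epithelium, stroma and muscle are being laid down.

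Arrays of the 2 groups were alike in brightness. Between 20233 and 21109 of 45281 probes were above background (44.68% to 46.62%), at median raw signals of 122.3 to 126.5. Log2 values of the tested probes correlated at 0.993 to 0.994 between BPA-vehicle arrays, at 0.992 between the vehicle-vehicle arrays, and at 0.971 to 0.973 between the groups, over the same 16272 genes and probes. The uterine transcripts Esr1, Pgr, Hoxa10 and Hoxa11 were above background on all 5 arrays, while 7 of 9 ovarian and steroidogenic markers on the array, among them Star, Cyp11a1 and Fshr, were above background on none. All arrays of BPA-exposed offspring lay on 1 slide and all arrays of vehicle-exposed offspring on another, so exposure and slide cannot be told apart. Each litter had 1 exposure, and inherited differences between the litters of this outbred stock were not tested. In bulk tissue, fewer cells of a type and less RNA per cell cannot be told apart either.

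Prenatal BPA was followed by a broad change in the uterus without estradiol. Of 16272 genes and unnamed probes tested, 5067 (31.1%) passed an adjusted p of 0.05 in limma's moderated test: 2543 were higher in BPA-vehicle uteri (15.6%) and 2524 were lower (15.5%). Most shifts were small, with a median absolute log2 change of 0.575 among called genes. The large changes were mainly falls: 239 genes rose by at least 2-fold and 596 fell by at least 2-fold, and beyond 4-fold there were 24 rises and 94 falls. Group values did not overlap for 8896 genes and probes (54.7%), among them each of the 5067 that were called. Pools that lie apart in a called gene, as described below, therefore add nothing to its call.

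**Figure D1:**
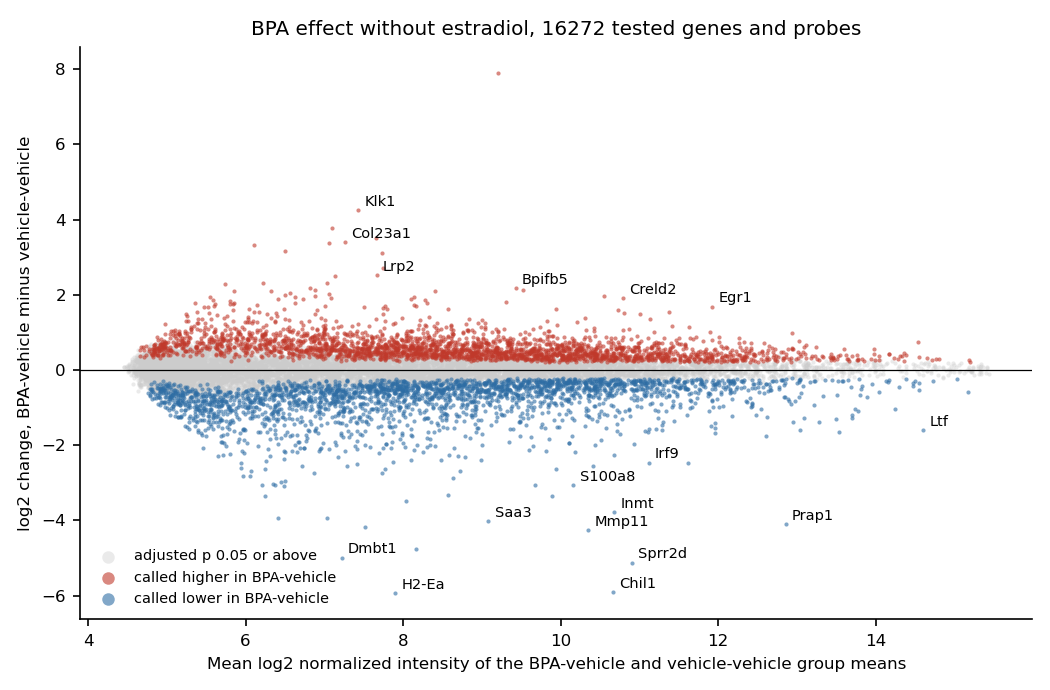
Log2 change between BPA-vehicle and vehicle-vehicle pools (vertical axis) against the mean log2 normalized intensity of both groups (horizontal axis), 1 point per tested gene or probe; red points were called higher and blue points lower at an adjusted p under 0.05. The falls reach further than the rises, with H2-Ea and Chil1 near -6 and Klk1 at 4.25; the isolated point near 8 is a probe without a gene symbol.

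The largest rises were led by the kallikreins, serine proteases encoded by a gene cluster on chromosome 7. Klk1, the tissue kallikrein that frees kinins from kininogen, had log2 values of 9.47, 9.54 and 9.65 in BPA-vehicle pools, against 5.32 and 5.29 in vehicle-vehicle pools. That is a 19-fold rise (log2 4.25 ± 0.10, adjusted p = 3.86e-08; values after ± are standard errors of the log2 change). Klk1b26, a member of the mouse-specific Klk1b group, measured 8.97, 8.91 and 9.07 in BPA-vehicle pools, against 5.42 and 5.01 in vehicle-vehicle pools. Klk1b27 measured 9.40, 9.37 and 9.43 in BPA-vehicle pools, against 5.60 and 6.21 in vehicle-vehicle pools, and both of its probes rose. The sequences of the Klk1b genes are nearly identical, so the share of each member in the signal of its probe is uncertain. Klk1b5 read 8.69, 8.73 and 8.80 in BPA-vehicle pools, against 4.87 and 5.88 in vehicle-vehicle pools. Klk1b21 had 8.46, 8.35 and 8.35 in BPA-vehicle pools, against 6.04 and 5.75 in vehicle-vehicle pools, and 2 of its 3 probes rose. Every BPA-vehicle pool was above both vehicle-vehicle pools for these 5 genes, with log2 rises of 2.49 to 4.25. Of 12 kallikreins tested, a family singled out after its values were seen, 6 rose and 1, Klk11, fell. Of all genes and probes 15.6% rose and 15.5% fell. Klk1b26 and Klk1b5 were above background on 1 of the 2 vehicle-vehicle arrays. Under estradiol the exposure contrast of Klk1 was smaller, at 2.55, with means of 10.997 in BPA-E2 and 8.45 in vehicle-E2 pools.

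Large rises outside the kallikreins were of several kinds. Col23a1, a transmembrane collagen, had log2 values of 8.92, 9.01 and 8.93 in BPA-vehicle pools, against 5.64 and 5.48 in vehicle-vehicle pools (3.39 ± 0.10, adjusted p = 1.47e-07), and both of its probes rose. Scgb1c1, a secretoglobin, measured 8.15, 8.08 and 7.99 in BPA-vehicle pools, against 4.58 and 5.26 in vehicle-vehicle pools (3.15 ± 0.19, adjusted p = 7.48e-06), and was above background on 1 of the 2 vehicle-vehicle arrays. Slc6a13, a transporter of GABA and taurine, measured 9.09, 9.08 and 9.16 in BPA-vehicle pools, against 6.57 and 6.22 in vehicle-vehicle pools (2.72 ± 0.12, adjusted p = 1.52e-06). No BPA-vehicle value overlapped a vehicle-vehicle value in these genes. Lrp2, the endocytic receptor megalin, read 9.00, 9.00 and 8.77 in BPA-vehicle pools, against 6.25 and 6.57 in vehicle-vehicle pools (2.52 ± 0.12, adjusted p = 2.25e-06). Bpifb5, of the family of lipid-binding BPI proteins, read 10.45, 10.54 and 10.56 in BPA-vehicle pools, against 8.43 and 8.26 in vehicle-vehicle pools (2.18 ± 0.08, adjusted p = 8.44e-07). Angptl7, a secreted angiopoietin-like protein, had 10.57, 10.66 and 10.48 in BPA-vehicle pools, against 8.49 and 8.43 in vehicle-vehicle pools (2.11 ± 0.10, adjusted p = 2.06e-06), and both of its probes rose. These are rises of 5.71, 4.52 and 4.33 fold, and the pools do not overlap.

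For some genes the vehicle-vehicle signal was not above background. Sspn, which encodes sarcospan of the dystrophin complex, had 7.86, 7.56 and 7.88 in BPA-vehicle pools, against 4.57 and 4.34 in vehicle-vehicle pools. It was above background on no vehicle-vehicle array, so its rise is given as at least 6.56-fold, the mean of the bright group over the lowest signal that counts as above background (adjusted p = 9.79e-07). Zfp985, a zinc finger gene, had 6.91, 6.95 and 6.79 in BPA-vehicle pools, against 4.43 and 4.74 in vehicle-vehicle pools, a rise of at least 3.54-fold by the same bound (adjusted p = 5.5e-06). Sspn was also above background on all 3 BPA-E2 arrays and on neither vehicle-E2 array, whereas Zfp985 was above background in all arrays of both estradiol groups. Tmprss11a, a membrane serine protease, measured 8.07, 8.13 and 8.39 in BPA-vehicle pools, against 5.90 and 5.86 in vehicle-vehicle pools (2.32 ± 0.21, adjusted p = 7.4e-05). Gadd45gip1, which works in the mitochondrial ribosome, measured 8.07, 7.90 and 7.75 in BPA-vehicle pools, against 5.67 and 5.80 in vehicle-vehicle pools (2.17 ± 0.14, adjusted p = 1.2e-05). The plot of the largest changes by array shows how tightly pools of a group sat together beside the distance between groups.

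**Figure D2:**
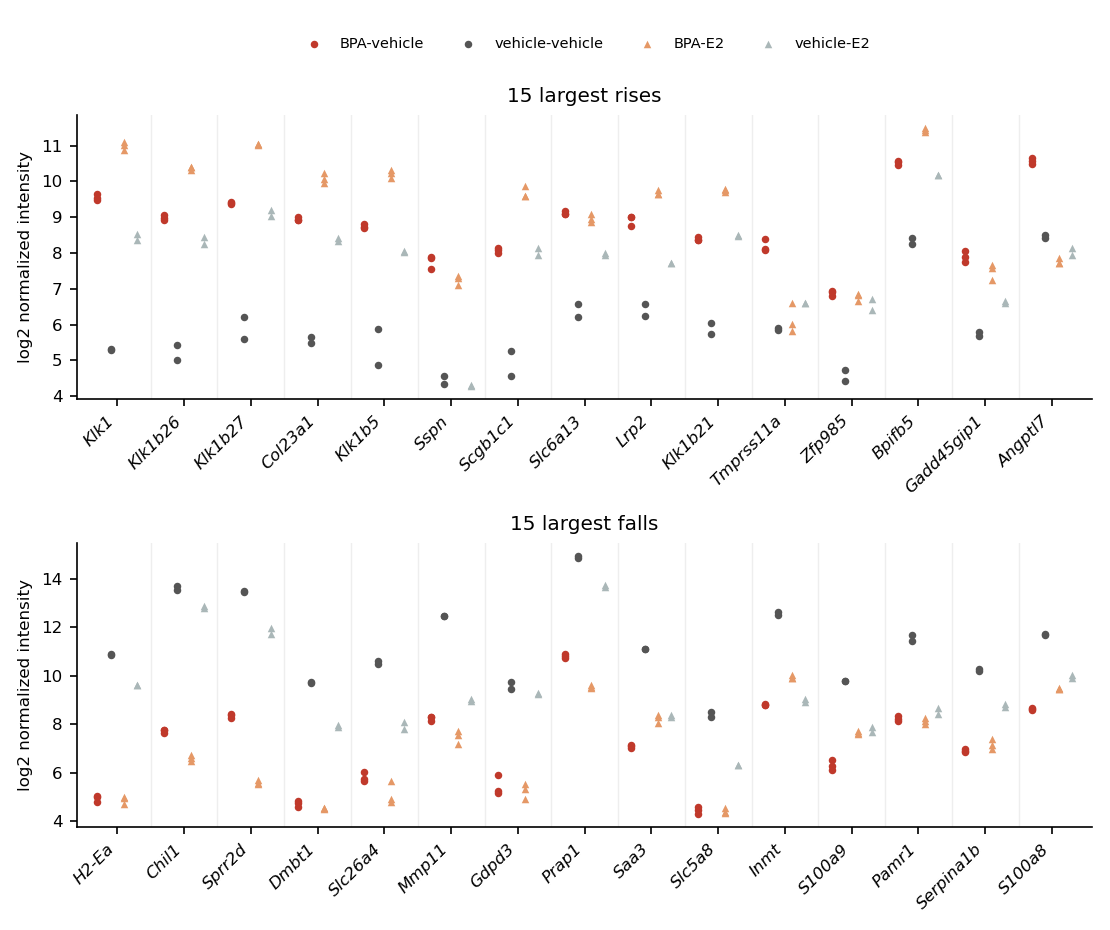
Log2 normalized intensity of the 15 largest rises (upper panel) and 15 largest falls (lower panel), 1 point per array, with BPA-vehicle and vehicle-vehicle pools as circles and BPA-E2 and vehicle-E2 pools as triangles. In every gene shown the 3 BPA-vehicle points lie clear of the 2 vehicle-vehicle points, as the naming rule required.

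The deepest falls included secreted proteins, transporters and immune genes. Chil1, a chitinase-like secreted glycoprotein, had log2 values of 7.74, 7.63 and 7.75 in BPA-vehicle pools, against 13.68 and 13.54 in vehicle-vehicle pools, a fall of 59.9-fold (-5.91 ± 0.10, adjusted p = 1.4e-08). Sprr2d, a small proline-rich protein of epithelial surfaces, measured 8.24, 8.41 and 8.38 in BPA-vehicle pools, against 13.45 and 13.48 in vehicle-vehicle pools (-5.12 ± 0.10, adjusted p = 1.4e-08). Prap1, a proline-rich acidic protein secreted by the uterine epithelium, measured 10.79, 10.89 and 10.73 in BPA-vehicle pools, against 14.87 and 14.95 in vehicle-vehicle pools (-4.10 ± 0.08, adjusted p = 1.4e-08). The pools of these 3 genes lie far apart, and all 3 stayed above background on every BPA-vehicle array. Dmbt1, a mucosal scavenger glycoprotein, had 4.76, 4.59 and 4.83 in BPA-vehicle pools, against 9.70 and 9.72 in vehicle-vehicle pools; it was above background on no BPA-vehicle array, a fall of at least 25.1-fold (adjusted p = 1.4e-08). Slc5a8, a transporter of monocarboxylates, had 4.56, 4.29 and 4.47 in BPA-vehicle pools, against 8.48 and 8.29 in vehicle-vehicle pools, likewise a fall of at least 10-fold (adjusted p = 1.25e-07). Neither gene had a value of one group near those of the other. Slc26a4, the anion exchanger pendrin, read 5.63, 5.71 and 6.02 in BPA-vehicle pools, against 10.47 and 10.61 in vehicle-vehicle pools (-4.76 ± 0.24, adjusted p = 3.62e-06). Gdpd3, a glycerophosphodiester phosphodiesterase, read 5.16, 5.22 and 5.88 in BPA-vehicle pools, against 9.47 and 9.75 in vehicle-vehicle pools (-4.19 ± 0.24, adjusted p = 5.78e-06). In these 4 genes too the groups were far apart.

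H2-Ea, the alpha chain of the class II molecule H2-E on chromosome 17, fell to a level near background. It had 5.05, 4.79 and 4.97 in BPA-vehicle pools, against 10.86 and 10.88 in vehicle-vehicle pools (-5.93 ± 0.11, adjusted p = 1.4e-08), and it was above background on 1 of 3 BPA-vehicle arrays, so the size of the fall is uncertain. Its group means after estradiol were 4.89 in BPA-E2 and 9.63 in vehicle-E2 pools. H2-Ea was thus near background in the 6 BPA arrays and bright in the 4 vehicle arrays whatever the injection. Pools of both injections came from the same litters, and the part of inherited differences between litters was not tested. Mmp11, the matrix protease stromelysin-3, measured 8.28, 8.12 and 8.29 in BPA-vehicle pools, against 12.47 and 12.48 in vehicle-vehicle pools (-4.25 ± 0.14, adjusted p = 5.37e-07). Pamr1, a secreted protease-like protein, measured 8.12, 8.23 and 8.32 in BPA-vehicle pools, against 11.43 and 11.70 in vehicle-vehicle pools (-3.34 ± 0.12, adjusted p = 6.49e-07), with both probes lower. The pools of both genes stood apart. Inmt, which methylates indole amines, measured 8.78, 8.78 and 8.82 in BPA-vehicle pools, against 12.51 and 12.62 in vehicle-vehicle pools (-3.77 ± 0.08, adjusted p = 3.1e-08), with both probes lower. Serpina1b, an alpha-1 antitrypsin, measured 6.98, 6.89 and 6.84 in BPA-vehicle pools, against 10.29 and 10.18 in vehicle-vehicle pools (-3.33 ± 0.12, adjusted p = 6.49e-07), and its 3 probes all fell.

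Acute-phase and calprotectin genes completed the set. Saa3, an acute-phase serum amyloid, had 7.12, 7.10 and 7.001 in BPA-vehicle pools, against 11.09 and 11.09 in vehicle-vehicle pools (-4.02 ± 0.10, adjusted p = 7.8e-08). S100a9 and S100a8 encode the subunits of calprotectin, abundant in neutrophils and in inflamed epithelium. S100a9 had 6.502, 6.11 and 6.29 in BPA-vehicle pools, against 9.76 and 9.80 in vehicle-vehicle pools (-3.48 ± 0.12, adjusted p = 4.91e-07). S100a8 had 8.64, 8.66 and 8.58 in BPA-vehicle pools, against 11.68 and 11.71 in vehicle-vehicle pools (-3.06 ± 0.07, adjusted p = 4.65e-08). For all of these genes the lower group was BPA-vehicle, with no overlap between pools.

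Genes that estradiol induces early in the uterus were more often higher than lower after prenatal BPA, although no estradiol had been given. Of 27 tested genes of that list of 31, 14 rose (51.9%) and 4 fell (14.8%), beside 15.6% and 15.5% of all genes and probes. The median log2 change was 0.39, beside 0.015 over all genes and probes tested. The number of falls was 2 without either vehicle-vehicle array. Pgr, the progesterone receptor and a classic estrogen target, had 9.39, 9.23 and 9.20 in BPA-vehicle pools, against 8.32 and 8.20 in vehicle-vehicle pools (1.01 ± 0.11, adjusted p = 0.000225), and both probes rose. Greb1, a cofactor of ESR1 that estrogen induces, had 10.34, 10.34 and 10.34 in BPA-vehicle pools, against 9.48 and 9.40 in vehicle-vehicle pools (0.89 ± 0.08, adjusted p = 6.51e-05), and both probes rose. Egr1, an immediate early zinc finger factor, had 12.80, 12.74 and 12.76 in BPA-vehicle pools, against 11.06 and 11.10 in vehicle-vehicle pools (1.69 ± 0.07, adjusted p = 1.09e-06). The pools separate cleanly in each of these 3 genes. Egr2 rose by log2 1.37 ± 0.11, adjusted p = 4.18e-05, and Igf1, a growth factor of the uterine stroma, by 0.62 ± 0.07, adjusted p = 0.000308. Sox4, a transcription factor in the same list, went the other way (-1.70 ± 0.11, adjusted p = 1.27e-05), with 1 of its 2 probes lower.

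The estrogen receptor transcript itself did not pass the test. Esr1 had 10.29, 10.15 and 10.63 in BPA-vehicle pools, against 9.78 and 10.13 in vehicle-vehicle pools (0.40 ± 0.18, adjusted p = 0.126), values that come close without overlapping, and Esr2 was above background on none of the 5 arrays. Hsd17b2, which turns estradiol into the weaker estrone, fell (-1.27 ± 0.16, adjusted p = 0.000464). Of 10 tested genes in the list of steroid receptors and coregulators, 2 rose (Pgr and Greb1, 20%) and 1 fell (10%). Of all genes and probes 15.6% rose and 15.5% fell. The fall was Hsd17b2, an enzyme that the list also holds, so no receptor or coregulator was called lower. A further 7 list members were above background on none of the 5 arrays.

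The secretory genes that estradiol induces later ran the opposite way. Of 25 tested genes of the list of 30, 3 rose (12%) and 16 fell (64%), at a median log2 change of -0.76. Of all genes and probes 15.6% rose and 15.5% fell. Ltf, lactoferrin, the standard marker of estrogen action on mouse uterine epithelium, had 13.83, 13.82 and 13.76 in BPA-vehicle pools, against 15.39 and 15.41 in vehicle-vehicle pools (-1.60 ± 0.07, adjusted p = 1.91e-06), and both probes fell. Its raw signal in vehicle-vehicle pools was 41978 and 41177, where the highest signals on the same arrays were 44626 and 45771, so the probe lay near the top of the measured range and the size of its fall is uncertain. Chil1 and Sprr2d above belong to this list, and so does Lyz2, a lysozyme that is also in the macrophage list, which fell (-1.68 ± 0.08, adjusted p = 2.87e-06). The small proline-rich family was split. Of 8 tested members 3 rose (Sprr2g, Sprr2a1 and Sprr1a) and 4 fell (Sprr2f, Sprr2d, Sprr2b and Sprr4). The lactoferrin pools do not overlap. Without estradiol, Ltf, Chil1 and Sprr2d already averaged 15.40, 13.61 and 13.47 in vehicle-vehicle pools. In vehicle-E2 pools, 6 h after estradiol, they averaged 15.35, 12.82 and 11.84. These falls are thus measured from a control with bright secretory transcripts, which were no higher after estradiol. Of 18 tested markers of the epithelium itself 3 rose (16.7%) and 5 fell (27.8%), at a median of -0.08, and their summed normalized intensity was 33070 to 35470 in BPA-vehicle pools and 36030 to 36040 in vehicle-vehicle pools. The count of falls among them was 2 without BPA-vehicle replicate 1, 2 without replicate 3 and 3 without vehicle-vehicle replicate 1. Cldn4, a tight junction claudin, fell (-1.95 ± 0.13, adjusted p = 1.3e-05), while Esrp1, an epithelial splicing factor (0.85 ± 0.08, adjusted p = 7.75e-05), and the keratin Krt7 (0.58 ± 0.10, adjusted p = 0.00331) rose. The defining markers Epcam and Ehf were not above background on these arrays, and the part of epithelial content in the secretory falls was not tested.

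Of 24 tested regulators of uterine development and implantation, 6 rose and 3 fell (1 fell without BPA-vehicle replicate 3), at a median of 0.22. The shares of 25% higher and 12.5% lower stand beside 15.6% and 15.5% over all genes and probes. Hoxa10, a homeobox gene that patterns the uterus and is needed for implantation, had 7.26, 6.94 and 6.995 in BPA-vehicle pools, against 5.90 and 6.15 in vehicle-vehicle pools (1.04 ± 0.14, adjusted p = 0.000602). Hoxa11, its neighbour, had 6.71, 6.25 and 7.24 in BPA-vehicle pools, against 6.06 and 5.99 in vehicle-vehicle pools (0.71 ± 0.25, adjusted p = 0.0598); it missed the threshold, but without BPA-vehicle replicate 2 it passed (log2 0.95, adjusted p = 0.0104). Ihh, the epithelial hedgehog ligand that progesterone induces, had 6.57, 5.88 and 6.27 in BPA-vehicle pools, against 4.79 and 4.96 in vehicle-vehicle pools. It was above background on no vehicle-vehicle array, which makes its rise at least 2.27-fold (adjusted p = 0.00114); 1 of its 2 probes rose. Fkbp4, a chaperone of the progesterone receptor, rose (0.56 ± 0.08, adjusted p = 0.00101), and Klf9, a partner of that receptor, fell (-0.41 ± 0.07, adjusted p = 0.00261). Wnt4, needed for decidualisation, fell (-0.41 ± 0.11, adjusted p = 0.0207), a call that was lost without vehicle-vehicle replicate 2 (-0.32, adjusted p = 0.132), BPA-vehicle replicate 2 (-0.39, adjusted p = 0.0551) or BPA-vehicle replicate 3 (-0.36, adjusted p = 0.0593). Lif, the cytokine that starts implantation, measured 6.36, 5.85 and 5.74 in BPA-vehicle pools, against 5.56 and 5.73 in vehicle-vehicle pools and was not called (0.34 ± 0.26, adjusted p = 0.379).

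In the hedgehog list, 3 of 12 tested genes rose (25%, beside 15.6% of all genes and probes) and 0 fell. Beside Ihh these were Dhh, a second ligand (0.92 ± 0.14, adjusted p = 0.00131), and Hsd11b2, which inactivates glucocorticoids (0.70 ± 0.08, adjusted p = 0.000292). Hsd11b2 is not a component of hedgehog signalling, so the only pathway genes that rose were the ligands Ihh and Dhh. Shh, the third ligand, and Gli1, a transcription factor of the pathway, were above background on none of the 5 arrays.

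Genes of ribosome assembly and tRNA charging rose together. Among ribosome biogenesis genes 22 of 26 tested rose (84.6%) and 0 fell (median log2 0.67). Among aminoacyl-tRNA synthetases 13 of 18 rose (72.2%) and 0 fell (median 0.41). Of all genes and probes 15.6% rose. Rrp12, which helps export and mature the small ribosomal subunit, had 10.75, 10.78 and 10.75 in BPA-vehicle pools, against 9.13 and 9.12 in vehicle-vehicle pools (1.63 ± 0.07, adjusted p = 1.59e-06). Ncl, nucleolin, rose by 1.199 ± 0.10, adjusted p = 4.73e-05 with both probes, and Nop58, a core protein of box C/D particles, by 1.01 ± 0.08, adjusted p = 3.33e-05. Rrp1b, a nucleolar protein, rose by 1.02 ± 0.08, adjusted p = 3.03e-05. Of the synthetases, the alanine enzyme Aars rose by 1.07 ± 0.08, adjusted p = 2.53e-05 and the cysteine enzyme Cars by 0.89 ± 0.09, adjusted p = 0.000132. These changes ran from 0.89 to 1.63 on the log2 scale, and the pools of the groups were apart in all 6 genes. Of the ribosomal proteins, 7 of 34 cytosolic ones rose, a share of 20.6% near the 15.6% of all genes and probes (4 without BPA-vehicle replicate 1 and 2 without either vehicle-vehicle array), such as Rplp0 (0.83 ± 0.07, adjusted p = 7.99e-05), at a median of 0.09. Of 67 mitochondrial ribosomal proteins 24 rose, or 35.8% (15 without vehicle-vehicle replicate 1 and 14 without replicate 2), such as Mrps12 (0.57 ± 0.07, adjusted p = 0.000609), at a median of 0.21. Of 57 oxidative phosphorylation subunits 21 rose, or 36.8% (12 without BPA-vehicle replicate 1 and 7 without vehicle-vehicle replicate 1), such as the complex I subunit Ndufv1 (0.43 ± 0.07, adjusted p = 0.00164), at a median of 0.15.

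Chaperones rose in both the endoplasmic reticulum and the cytosol. In the endoplasmic reticulum list, 18 of 21 tested genes rose (85.7%) and 0 fell (median log2 0.64). Among cytosolic chaperones 19 of 27 rose (70.4%) and 0 fell (median 0.56). Of all genes and probes 15.6% rose. Creld2, a secretory-pathway chaperone, had 11.65, 11.70 and 11.87 in BPA-vehicle pools, against 9.86 and 9.82 in vehicle-vehicle pools (1.90 ± 0.10, adjusted p = 4.66e-06). Hspa5, the reticulum chaperone BiP, had 6.92, 6.98 and 7.13 in BPA-vehicle pools, against 5.55 and 5.49 in vehicle-vehicle pools (1.49 ± 0.13, adjusted p = 5.65e-05). Sdf2l1, a partner of BiP, had 9.67, 9.69 and 9.63 in BPA-vehicle pools, against 8.34 and 8.33 in vehicle-vehicle pools (1.33 ± 0.09, adjusted p = 1.3e-05). Each of the 3 was higher in every BPA-vehicle pool than in either vehicle-vehicle pool. In the cytosol, Hspa1a, an inducible HSP70, rose by 1.88 ± 0.10, adjusted p = 3.77e-06, its exchange factor Hsph1 by 1.504 ± 0.11, adjusted p = 2.08e-05, and the HSP70-HSP90 adaptor Stip1 by 0.84 ± 0.07, adjusted p = 5.14e-05. Hspa1a has a nearly identical copy, so its own share of that signal is uncertain.

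Reticulum chaperone genes are known to be switched on through an endoplasmic reticulum stress element in their promoters, and the promoter letters were searched for it. The motif was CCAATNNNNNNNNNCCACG on either strand, in RefSeq promoters of GRCm38.p6 from 250 bases before to 50 after the gene start, found for 9963 of 12403 tested genes with a symbol. It was present in 14 of these genes (0.141%) and in 8 of the 19 promoters of the list (42.1%). Of the 14 genes, 11 rose and 0 fell, where 1626 of the 9963 genes with a promoter rose. The 11 include the 8 list genes, already counted as higher above, so this count is not separate from the list result. Outside the list Acacb, Spats2l and Alg12 rose, while Ptgdr2, Pan2 and Adcy3 were not called. The stretches below are the promoters of 5 chaperone-list genes that rose, with the element in capitals and 20 bases on either side, read 5′ to 3′ on the gene's strand (where the capitals begin CGTGG the element lies on the other strand).

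Creld2: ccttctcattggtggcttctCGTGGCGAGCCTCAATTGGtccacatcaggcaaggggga
Hspa5: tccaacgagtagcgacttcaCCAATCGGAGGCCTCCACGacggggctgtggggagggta
Dnajc3: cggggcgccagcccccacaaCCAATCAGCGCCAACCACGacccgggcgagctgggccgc
Syvn1: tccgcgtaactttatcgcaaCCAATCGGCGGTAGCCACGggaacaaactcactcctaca
Pdia6: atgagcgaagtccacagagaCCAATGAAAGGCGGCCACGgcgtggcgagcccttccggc

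They lie at chr15:88819500-88819558 (plus strand), chr2:34772005-34772063 (plus strand), chr14:118937807-118937865 (plus strand), chr19:6046512-6046570 (plus strand) and chr12:17266471-17266529 (plus strand). Creld2 and Hspa5 rose most among them, as above. Dnajc3, a reticulum cochaperone, rose by 1.14 ± 0.11, adjusted p = 0.000117; Syvn1, a ubiquitin ligase of reticulum-associated degradation, by 0.85 ± 0.08, adjusted p = 7.5e-05; and Pdia6, a disulfide isomerase, by 0.84 ± 0.09, adjusted p = 0.000257. Dnajc3 and Pdia6 were picked for their promoters after their values were seen. The other 3 list members with the element, Hsp90b1, Calr and Ero1b, also rose. The CCAAT part alone is common, in 42.4% of all tested promoters, and the letters are a description of these windows, not a measured binding site.

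Cholesterol synthesis moved in the same direction, with 8 of 17 tested genes higher (47.1%, beside 15.6% of all genes and probes) and 0 lower (median log2 0.48). The methyl sterol oxidase Msmo1 had 9.56, 9.77 and 9.44 in BPA-vehicle pools, against 8.51 and 8.47 in vehicle-vehicle pools (1.10 ± 0.10, adjusted p = 9.47e-05). Squalene epoxidase, Sqle, rose by 0.87 ± 0.08, adjusted p = 0.000103 with both probes, and lanosterol synthase, Lss, by 0.95 ± 0.14, adjusted p = 0.00109. Glycolysis did not move that way: of 14 tested genes 0 rose and 4 fell (2 fell without vehicle-vehicle replicate 1, and 1 rose without either vehicle-E2 array), among them the aldolase Aldoc (-0.67 ± 0.10, adjusted p = 0.00128). The 4 falls are 28.6%, beside 15.5% of all genes and probes.

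**Figure D3:**
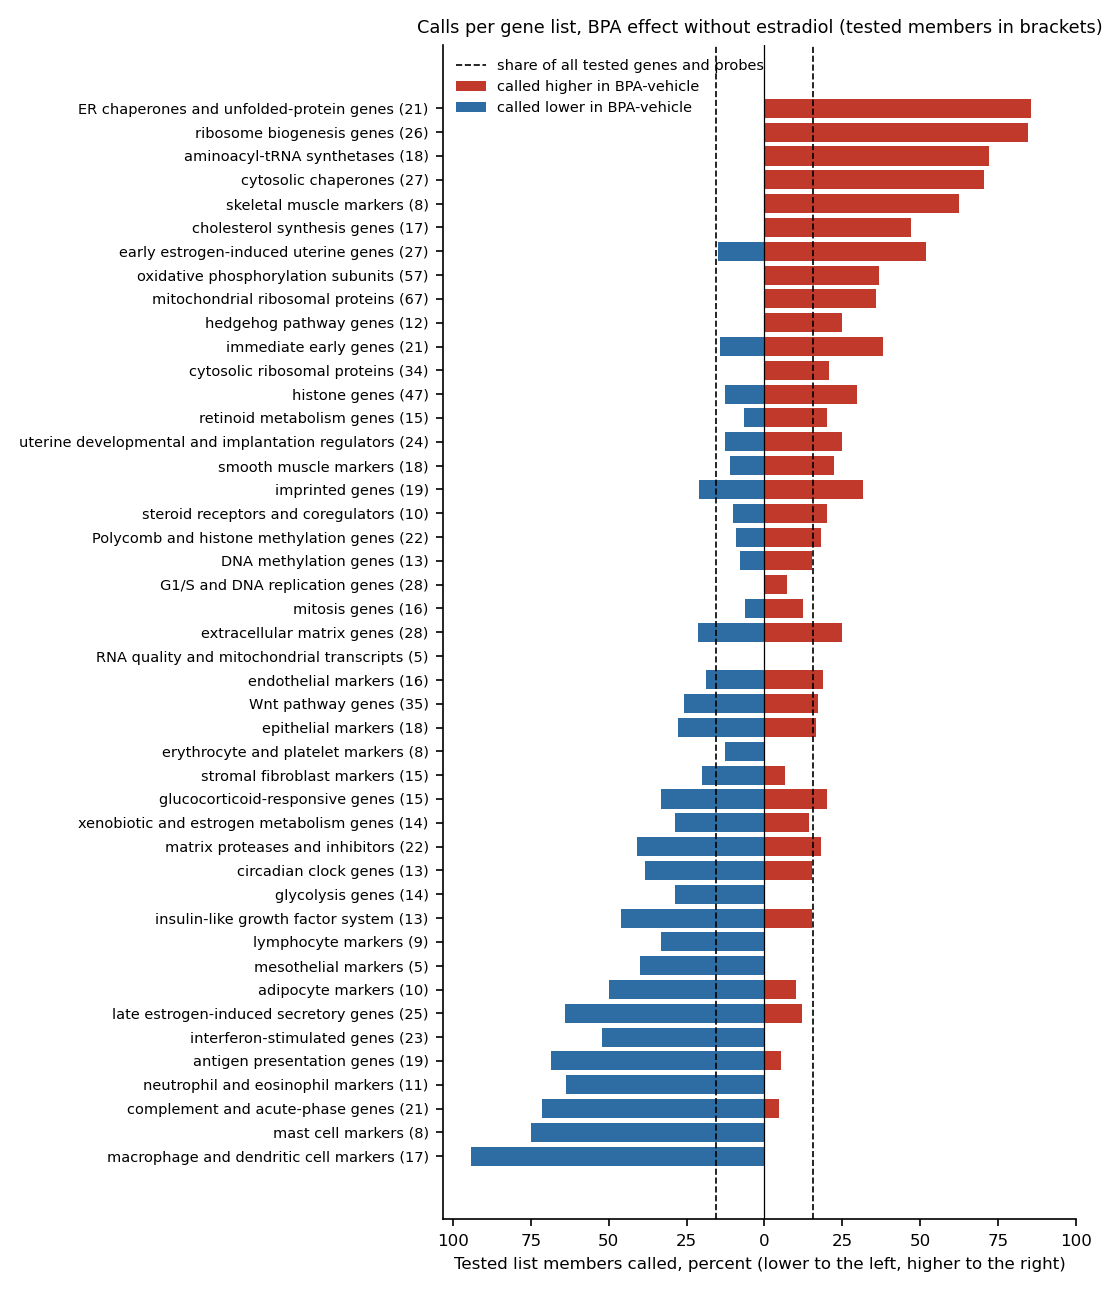
Share of the tested members of each gene list called higher (red, to the right) or lower (blue, to the left) in BPA-vehicle pools, in percent, for the 45 lists with at least 5 tested members; dashed lines mark the shares over all tested genes and probes, 15.6% higher and 15.5% lower. Chaperones, ribosome biogenesis genes and synthetases stand at the top, and macrophage, mast cell, complement and neutrophil lists at the bottom.

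Immune transcripts were lower in BPA-vehicle uteri across several lists. Of 17 tested macrophage and dendritic cell markers 16 fell (94.1%, beside 15.5% of all genes and probes) and 0 rose (median log2 -1.10). Their summed intensity was 16020 to 16540 in BPA-vehicle pools and 35590 to 36530 in vehicle-vehicle pools. Aif1, an actin-binding protein of macrophages, had 7.76, 7.71 and 7.66 in BPA-vehicle pools, against 9.24 and 9.09 in vehicle-vehicle pools (-1.46 ± 0.10, adjusted p = 2.33e-05), and both probes fell. Fcgr3, a receptor for IgG, had 8.84, 8.84 and 8.74 in BPA-vehicle pools, against 10.15 and 10.17 in vehicle-vehicle pools (-1.36 ± 0.08, adjusted p = 8.5e-06). Cd14, the coreceptor for endotoxin, fell (-1.24 ± 0.08, adjusted p = 1.72e-05). Values did not overlap between groups for any of the 17 tested markers (54.7% of all genes and probes do not overlap), and the dendritic cell integrin Itgax and Fcer1g were above background on none of the 5 arrays. Of 11 neutrophil and eosinophil markers 7 fell (63.6%; 4 without vehicle-vehicle replicate 2) and 0 rose. Their sums were 1544 to 1609 in BPA-vehicle pools and 7522 to 7711 in vehicle-vehicle pools. Most of the vehicle-vehicle sum came from S100a8, Retnlg and S100a9, with log2 means of 11.69, 11.44 and 9.78, so it is not a level of the whole list. Beside S100a8 and S100a9, the resistin-like Retnlg fell (-2.01 ± 0.12, adjusted p = 6.98e-06), and the defining eosinophil markers Siglecf, Epx and Il5ra were not above background. Of 8 mast cell markers 6 fell (75%; 3 without BPA-vehicle replicate 3), such as the histidine decarboxylase gene Hdc (-0.54 ± 0.09, adjusted p = 0.00162). Their sums were 2429 to 2568 in BPA-vehicle pools and 3502 to 3593 in vehicle-vehicle pools. Most of the vehicle-vehicle sum came from Hdc alone, with a log2 mean of 11.34. Of 9 lymphocyte markers 3 fell (33.3%), and 1 fell without BPA-vehicle replicate 2, vehicle-vehicle replicate 2 or BPA-E2 replicate 3. Their sums overlap, at 1256 to 1526 in BPA-vehicle pools and 1320 to 1480 in vehicle-vehicle pools. The T cell coreceptors Cd4 and Cd8a were above background on none of the 5 arrays.

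Antigen presentation genes followed, with 13 of 19 tested lower (68.4%) and 1 higher (5.26%), at a median log2 of -0.76. Of all genes and probes 15.5% fell and 15.6% rose. H2-Aa, the alpha chain of class II H2-A, had 4.49, 4.77 and 4.69 in BPA-vehicle pools, against 7.02 and 7.91 in vehicle-vehicle pools; it was above background on no BPA-vehicle array, a fall of at least 5.29-fold (adjusted p = 5.65e-05). Its partner chain H2-Ab1 had 10.96, 10.87 and 10.93 in BPA-vehicle pools, against 11.93 and 11.87 in vehicle-vehicle pools (-0.98 ± 0.07, adjusted p = 1.99e-05), and its 3 probes all fell. Of the class I genes, H2-Q7 fell (-2.01 ± 0.12, adjusted p = 1e-05) and H2-D1 (-1.26 ± 0.08, adjusted p = 1.27e-05). H2-D1 has 4 probes that disagree, 3 lower and 1 higher, and class I genes are close paralogs. Both class II and class I genes were thus lower, the class II ones by unequal amounts. Complement and acute-phase genes fell in 15 of 21 tested cases (71.4%) and rose in 1 (4.76%), at a median of -0.80. Cp, the copper oxidase ceruloplasmin, fell (-1.97 ± 0.08, adjusted p = 1.36e-06), Cfi, complement factor I (-2.26 ± 0.11, adjusted p = 2.38e-06), and complement component C2 (-1.60 ± 0.08, adjusted p = 3.38e-06).

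Interferon-stimulated genes were lower in 12 of 23 tested (52.2%, beside 15.5% of all genes and probes) and higher in 0 (median log2 -0.49). Irf9, the DNA-binding subunit of the factor ISGF3, had 9.99, 9.83 and 9.84 in BPA-vehicle pools, against 12.35 and 12.36 in vehicle-vehicle pools (-2.46 ± 0.09, adjusted p = 5.37e-07), and both probes fell. Ifit3, an antiviral protein that interferon induces, had 9.12, 8.97 and 8.87 in BPA-vehicle pools, against 10.56 and 10.45 in vehicle-vehicle pools (-1.52 ± 0.15, adjusted p = 0.000151). Rsad2, the antiviral enzyme viperin, fell (-0.90 ± 0.11, adjusted p = 0.000394), and Parp14, an ADP-ribosyl transferase (-0.74 ± 0.09, adjusted p = 0.000545). ISGF3 binds the interferon-stimulated response element, searched here as GAAANNGAAA on either strand. The letters stood in 3.7% of all tested promoters and in 8 of 15 promoters of the list (53.3%). They are shown, in capitals with up to 20 bases on either side, for 2 list genes that fell and for Isg15, which was chosen after its value was seen because it holds overlapping copies.

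Ifit3: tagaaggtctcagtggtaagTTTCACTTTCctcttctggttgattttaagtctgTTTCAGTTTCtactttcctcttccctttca
Rsad2: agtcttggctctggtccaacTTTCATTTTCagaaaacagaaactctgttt
Isg15: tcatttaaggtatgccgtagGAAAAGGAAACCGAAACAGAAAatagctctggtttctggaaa

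These stretches lie at chr19:34583353-34583436 (plus strand), chr12:26456543-26456592 (minus strand) and chr4:156200855-156200916 (minus strand) of GRCm38.p6. Isg15, a ubiquitin-like modifier, measured 9.67, 9.53 and 9.45 in BPA-vehicle pools, against 10.05 and 9.74 in vehicle-vehicle pools and was not called (-0.35 ± 0.13, adjusted p = 0.0718); without vehicle-vehicle replicate 2 it was (log2 -0.50, adjusted p = 0.0455). The element was present in promoters of genes on both sides of the threshold. The macrophage marker sums given above were lower on the same arrays, and their part in the lower interferon, complement and antigen presentation genes was not tested.

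**Figure D4:**
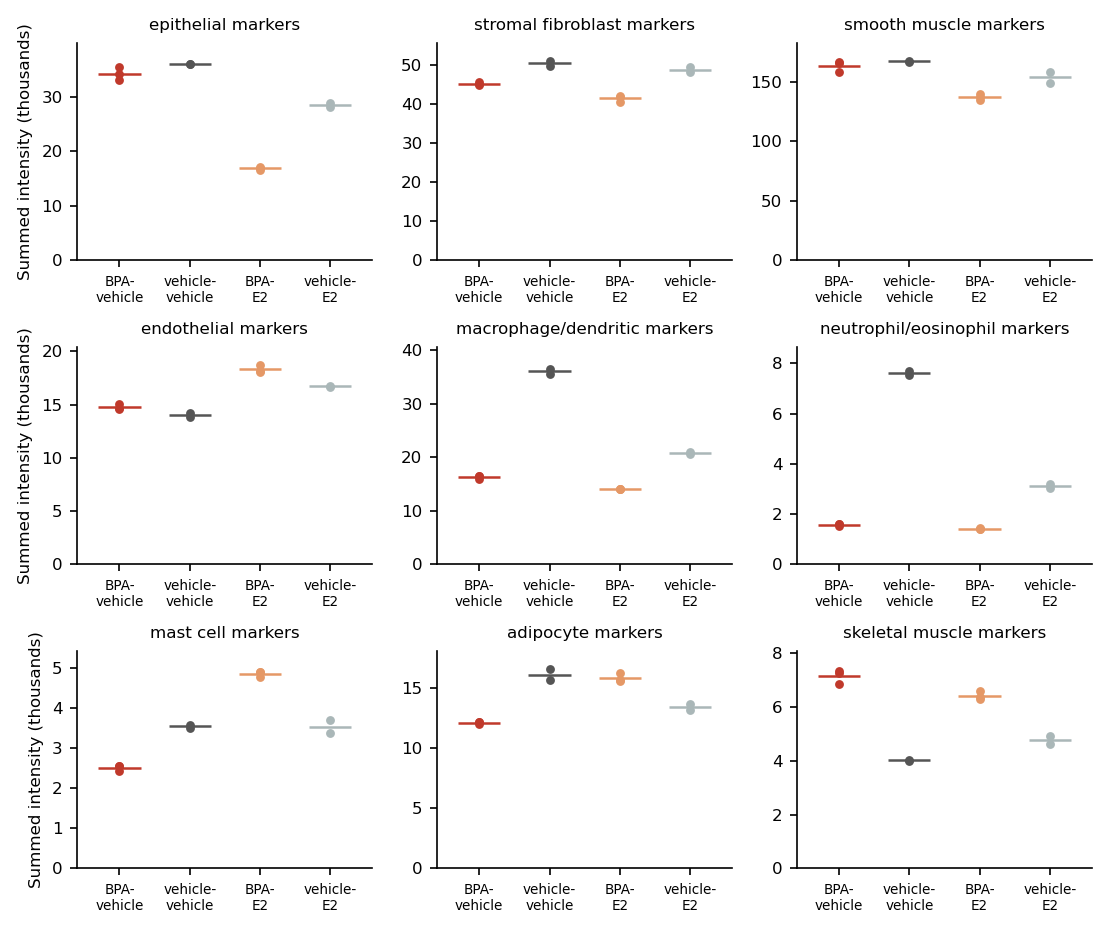
Summed normalized intensity, scaled as the axis label gives and on linear axes from 0, of the tested markers of 9 cell types, 1 point per array with a bar at the group mean. Macrophage, neutrophil, mast cell and adipocyte sums are lower in BPA-vehicle than in vehicle-vehicle pools, skeletal muscle sums are higher, epithelial and stromal sums are slightly lower, and smooth muscle sums touch. In vehicle-vehicle pools the neutrophil sum rests mainly on S100a8, Retnlg and S100a9, and the mast cell sum on Hdc.

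Markers of stroma, muscle and vessels were called higher in 6.67%, 22.2% and 18.8% of cases and lower in 20%, 11.1% and 18.8%, shares that lie around the 15.6% and 15.5% of all genes and probes. Of 15 stromal fibroblast markers 1 rose and 3 fell, with sums of 44780 to 45470 in BPA-vehicle pools and 49670 to 51030 in vehicle-vehicle pools; Lum, a collagen-binding proteoglycan, fell (-0.43 ± 0.08, adjusted p = 0.005) and Vcam1 (-0.57 ± 0.08, adjusted p = 0.000867), while Cd34 rose by 0.64 ± 0.13, adjusted p = 0.00635. Leaving out BPA-vehicle replicate 2 gave 2 rises in that list. Of 18 smooth muscle markers 4 rose and 2 fell (1 fell without vehicle-vehicle replicate 1), with sums of 157800 to 166800 in BPA-vehicle pools and 166600 to 167700 in vehicle-vehicle pools. Myocd, the master coactivator of smooth muscle genes, rose by 1.03 ± 0.13, adjusted p = 0.000469 and caldesmon, Cald1, by 1.42 ± 0.09, adjusted p = 9.74e-06, while smoothelin, Smtn, fell (-0.47 ± 0.07, adjusted p = 0.00187). Of 5 Myocd probes 2 rose, and of 5 Cald1 probes 2 rose, so not every probe of these genes moved. Of 16 endothelial markers 3 rose and 3 fell (1 fell without vehicle-vehicle replicate 2); endoglin, Eng, rose by 0.78 ± 0.08, adjusted p = 0.000216 and von Willebrand factor, Vwf, fell (-0.66 ± 0.11, adjusted p = 0.00179).

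Called markers of striated muscle rose, and those of fat mostly fell. Of 8 tested skeletal muscle markers 5 rose (62.5%, beside 15.6% of all genes and probes) and 0 fell (median log2 0.94). Their sums were 6837 to 7332 in BPA-vehicle pools and 3985 to 4044 in vehicle-vehicle pools. Atp2a1, the fast-twitch calcium pump, had 8.00, 7.76 and 7.85 in BPA-vehicle pools, against 5.92 and 5.88 in vehicle-vehicle pools (1.97 ± 0.11, adjusted p = 4.51e-06). Pvalb, the calcium buffer parvalbumin, had 7.47, 7.33 and 7.32 in BPA-vehicle pools, against 5.44 and 5.10 in vehicle-vehicle pools (2.10 ± 0.14, adjusted p = 1.63e-05). Acta1, skeletal alpha-actin, rose by 1.00 ± 0.08, adjusted p = 3.09e-05 and troponin Tnnc2 by 1.88 ± 0.19, adjusted p = 0.000156. All 4 were higher in every BPA-vehicle pool, yet the defining fast myosins Myh1 and Myh4 were above background on none of the 5 arrays. Of 10 adipocyte markers 1 rose (0 without vehicle-vehicle replicate 2) and 5 fell (50%, beside 15.5% of all genes and probes). Their sums were 12010 to 12160 in BPA-vehicle pools and 15660 to 16550 in vehicle-vehicle pools. Pparg, the nuclear receptor that drives fat cell formation, fell (-1.36 ± 0.12, adjusted p = 6.78e-05) and the lipid droplet protein Cidec (-0.95 ± 0.13, adjusted p = 0.000811); the defining markers Plin1 and Fabp4 were above background on none of the 5 arrays. What part these tissues have in the other results was not tested.

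Among matrix proteases and their inhibitors, 9 of 22 tested genes fell (40.9%) and 4 rose (18.2%), beside 15.5% and 15.6% of all genes and probes. Beside Mmp11, the stromelysins Mmp3 and Mmp10 fell: Mmp3 had 6.28, 6.29 and 6.53 in BPA-vehicle pools, against 8.56 and 8.39 in vehicle-vehicle pools (-2.10 ± 0.11, adjusted p = 3.57e-06), with all 3 probes lower. Mmp10 had 5.08, 5.43 and 4.97 in BPA-vehicle pools, against 7.34 and 7.57 in vehicle-vehicle pools (-2.29 ± 0.18, adjusted p = 3.97e-05) and was above background on 2 of the 3 BPA-vehicle arrays. Timp2, an inhibitor of these enzymes, fell (-0.75 ± 0.07, adjusted p = 8.06e-05). All these stromelysins were lower with no overlap between pools. The matrix itself showed no common direction, with 6 of 28 genes lower (21.4%) and 7 higher (25%). The number higher was 1 to 6 when single arrays were left out (1 without vehicle-vehicle replicate 2, 3 without BPA-vehicle replicate 1 or 3, and 4 without vehicle-vehicle replicate 1 or any BPA-E2 array). Thbs2, a thrombospondin, fell (-0.97 ± 0.08, adjusted p = 5.96e-05), tenascin C, Tnc (-0.80 ± 0.09, adjusted p = 0.000202), and the collagen cross-linking oxidase Lox (-0.69 ± 0.08, adjusted p = 0.000259).

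Wnt and growth factor genes were mixed. Of 35 tested Wnt pathway genes 6 rose (3 without BPA-vehicle replicate 2 or 3 or vehicle-vehicle replicate 1) and 9 fell, shares of 17.1% and 25.7% beside 15.6% and 15.5% of all genes and probes. Wnt2, a ligand, had 4.68, 4.91 and 4.67 in BPA-vehicle pools, against 6.49 and 6.91 in vehicle-vehicle pools, at least 3.09-fold lower as no BPA-vehicle array was above background (adjusted p = 0.000143). The receptor Fzd7 fell (-1.01 ± 0.08, adjusted p = 3.32e-05), the amplifier Rspo3 (-0.93 ± 0.08, adjusted p = 7.68e-05) and the secreted Dkk3 (-0.75 ± 0.09, adjusted p = 0.000292). In the insulin-like growth factor system 2 of 13 rose (1 without BPA-vehicle replicate 2 or vehicle-vehicle replicate 1) and 6 fell. These shares are 15.4% and 46.2%, so the rises lie at the share of all genes and probes. The ligand Igf1 was higher, as given above, while both receptors were lower: Igf1r had 8.44, 8.53 and 8.55 in BPA-vehicle pools, against 9.90 and 9.83 in vehicle-vehicle pools (-1.36 ± 0.08, adjusted p = 5.5e-06), though only 2 of its 4 probes fell. Igf2r, which clears IGF2, fell (-0.82 ± 0.08, adjusted p = 0.000115), and the adaptor Irs2 (-0.98 ± 0.13, adjusted p = 0.000779). Of 15 retinoid metabolism genes 3 rose, namely the retinal dehydrogenases Aldh1a1 (0.93 ± 0.11, adjusted p = 0.000337) and Aldh1a2 (0.68 ± 0.09, adjusted p = 0.000833) and the carrier Crabp2 (1.17 ± 0.15, adjusted p = 0.000529), and 1 fell, the retinol uptake receptor Stra6 (-0.65 ± 0.13, adjusted p = 0.00499), which is 20% and 6.67%.

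Clock genes differed as well. Dbp, a clock output factor, had 11.06, 10.97 and 10.98 in BPA-vehicle pools, against 12.22 and 12.17 in vehicle-vehicle pools (-1.19 ± 0.08, adjusted p = 1.31e-05), and Per3 fell (-0.90 ± 0.09, adjusted p = 0.000184). Nr1d1, a repressor of the clock loop, fell (-1.12 ± 0.23, adjusted p = 0.00694), a call lost without vehicle-vehicle replicate 1 (-0.86, adjusted p = 0.0629). Arntl, which that repressor holds down, rose by 0.81 ± 0.18, adjusted p = 0.00941, a call lost without vehicle-vehicle replicate 2 (0.69, adjusted p = 0.0695). In the list of 13 tested genes 2 rose (0 without vehicle-vehicle replicate 2 and 1 without any other of the 5 arrays) and 5 fell (3 without vehicle-vehicle replicate 2). These shares are 15.4% and 38.5%, beside 15.6% and 15.5% of all genes and probes. The clock hour of collection is not given in the sources used here. Of 21 immediate early genes 8 rose (38.1%) and 3 fell (14.3%), and 1 fell without BPA-vehicle replicate 2 or vehicle-vehicle replicate 2. Egr3 rose by 1.36 ± 0.13, adjusted p = 0.000129 and Ccn2, a matricellular growth factor, fell (-0.87 ± 0.09, adjusted p = 0.000123).

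Few genes of dividing cells passed the test. Of 16 mitosis genes 2 rose (1 without either vehicle-vehicle array) and 1 fell; Mad2l1 of the spindle checkpoint rose (0.65 ± 0.08, adjusted p = 0.000349) and the kinase Aurkb fell (-0.55 ± 0.10, adjusted p = 0.00427). Of 28 genes of G1/S and DNA replication 2 rose and 0 fell, at a median of 0.02; the number that rose was 0 without vehicle-vehicle replicate 1, 1 without vehicle-vehicle replicate 2 or BPA-vehicle replicate 2, and 4 without BPA-E2 replicate 1, while 1 fell without BPA-vehicle replicate 2. Both shares lie below the 15.6% of all genes that rose. Of 47 histone genes 14 rose (29.8%; 9 without vehicle-vehicle replicate 1) and 6 fell (12.8%). Among them were H2ac22 (0.70 ± 0.08, adjusted p = 0.000374) and the linker histone H1f2 (-0.77 ± 0.08, adjusted p = 0.000185). Histone coding sequences are near copies, so single members are uncertain.

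Epigenetic regulators and imprinted genes, often examined after prenatal exposures, were called in shares of 27.3% (Polycomb and histone methylation), 23.1% (DNA methylation) and 52.6% (imprinted), beside 31.1% of all genes and probes. Ezh2, the Polycomb methyltransferase, had 8.05, 8.16 and 7.88 in BPA-vehicle pools, against 7.81 and 8.17 in vehicle-vehicle pools (0.04 ± 0.12, adjusted p = 0.839), and the pools overlap. Dnmt1, the maintenance DNA methyltransferase, had 8.91, 8.54 and 9.13 in BPA-vehicle pools, against 8.57 and 8.595 in vehicle-vehicle pools (0.28 ± 0.16, adjusted p = 0.23); without BPA-vehicle replicate 2 it passed the threshold (0.44, adjusted p = 0.03). Of 22 Polycomb and histone methylation genes 4 rose and 2 fell, with 2 rises without BPA-vehicle replicate 1 or 3 or either vehicle-vehicle array and 1 fall without BPA-vehicle replicate 2 or 3 or either vehicle-vehicle array, and of 13 DNA methylation genes 2 rose and 1 fell (2 fell without BPA-vehicle replicate 2 or vehicle-vehicle replicate 2). Ring1, a Polycomb ubiquitin ligase, rose by 0.58 ± 0.11, adjusted p = 0.00354, the histone methylase Setd7 fell (-0.52 ± 0.09, adjusted p = 0.00283), and Gadd45b, which takes part in DNA demethylation, fell (-0.81 ± 0.11, adjusted p = 0.0009). Of 19 imprinted genes 6 rose (3 without vehicle-vehicle replicate 1) and 4 fell, among them the growth inhibitor Cdkn1c, which fell (-0.72 ± 0.08, adjusted p = 0.000202), and Gnas, which rose by 0.60 ± 0.07, adjusted p = 0.000472 with 3 of 5 probes.

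Of the genes called without estradiol that are named here, 60 had more than 1 tested probe, and in 34 of these all probes were called in the same direction. In 26 they were not: H2-D1 and Padi2 had a probe called the other way, and Aars, Cald1, Cars, Cp, Egr3, Gnas, H2-Q7, Hspa1a, Ifit3, Igf1r, Ihh, Klk1b21, Lss, Lum, Myocd, Parp14, Per3, Ring1, Rrp1b, Setd7, Smtn, Sox4, Tnc and Wdr92 had at least 1 probe that was not called.

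Of the remaining lists, 2 of 5 mesothelial markers fell (1 without either vehicle-vehicle array), with sums of 790 to 840 in BPA-vehicle pools and 1128 to 1135 in vehicle-vehicle pools, and 1 of 8 erythrocyte and platelet markers fell, a call lost without BPA-vehicle replicate 1 or 3 or either vehicle-vehicle array, while 1 rose without BPA-E2 replicate 1 or 3 or vehicle-vehicle replicate 2. The nerve and glia list and the ovarian list had 3 and 2 tested members, of which 1 each fell. Of 15 glucocorticoid-responsive genes 3 rose (5 without either vehicle-E2 array) and 5 fell (3 without BPA-E2 replicate 2 or 3, BPA-vehicle replicate 1 or 3, or vehicle-vehicle replicate 2). These shares are 20% and 33.3%, beside 15.6% and 15.5% of all genes and probes. Of 14 genes of xenobiotic and estrogen metabolism 2 rose (14.3%) and 4 fell (28.6%), and 2 fell without BPA-vehicle replicate 1 or either vehicle-vehicle array. Of 5 transcripts that track RNA quality limma called 0, and 1 had an unadjusted p under 0.05.

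The same exposure contrast was then read in the offspring that had received estradiol, to see where the effect without estradiol differs. Under estradiol 5037 genes and probes were called (31.0%), 2267 of them in the same direction as without estradiol, which is 44.74% of those called without and 45.01% of those called under estradiol. In opposite directions there were 391 (7.72% and 7.76%). The 2 comparisons share no array, but both lie across the same 2 slides. They also compare pools of the same litters, so agreement between them is not a repeat in other litters. A test of the difference between the effects called 2533 genes and probes (15.6%), and 1628 of these were also called without estradiol (32.13% of that list). In all, 832 genes and probes were called without estradiol, not called under it, and differed between injections.

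The genes with the 10 most negative differences, apart from Cops8, fell without estradiol. Under estradiol their changes were smaller falls, changes near 0, or rises. Saa3 (-0.10) and S100a9 (-0.13) were not called under estradiol, and Pamr1 fell less (-0.41). Inmt, Cyp2e1, Mmp10, Mzb1 and Car3 had higher means in BPA-E2 than in vehicle-E2 pools. Inmt, with the largest such difference (-4.72 in log2 units, -3.77 without estradiol minus 0.95 under it), averaged 9.94 in BPA-E2 and 8.99 in vehicle-E2 pools. Saa3 had a difference of -3.92 and averaged 8.22 in BPA-E2 and 8.32 in vehicle-E2 pools. S100a9 differed by -3.35, Mmp10 by -3.28 and Pamr1 by -2.93; Mmp10 was above background on neither vehicle-E2 array. In vehicle-vehicle uteri these genes were high, and in the other 3 groups they lay lower. Cyp2e1, a cytochrome P450, fell without estradiol (-1.64 ± 0.11, adjusted p = 1.3e-05) and rose under it (1.37), a difference of -3.01. Mzb1, a chaperone of antibody-secreting cells, fell (-1.80 ± 0.24, adjusted p = 0.000696) without estradiol and differed by -2.87. Cstdc4, of the cystatin family, fell by at least 3.41-fold without estradiol (adjusted p = 0.000102) and differed by -2.72, a size that is uncertain because neither BPA-vehicle nor vehicle-E2 arrays measured it above background. Car3, a carbonic anhydrase, fell (-0.43 ± 0.09, adjusted p = 0.00702; without vehicle-vehicle replicate 1, -0.32, adjusted p = 0.0573) and differed by -2.74. Cops8, a signalosome subunit, was the 1 riser of this set (0.77 ± 0.14, adjusted p = 0.00389), with a larger rise under estradiol (3.74) and a difference of -2.96; it was above background on neither vehicle-E2 array.

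Among the 10 most positive differences were falls that were far deeper under estradiol. Aoc1, a diamine oxidase, fell (-1.59 ± 0.11, adjusted p = 2.11e-05) without estradiol against -7.43 under it, a difference of 5.84. Clca1, a secreted regulator of chloride channels, fell (-1.65 ± 0.12, adjusted p = 2.75e-05), with a difference of 4.28. Arg1, arginase 1, fell (-1.35 ± 0.14, adjusted p = 0.000184), with a difference of 3.68, and Ltf differed by 3.10, a size that is uncertain since its vehicle-E2 raw signals of 42318 and 44207 also lay near the arrays' highest. These 4 genes averaged between 5.95 and 10.65 in BPA-E2 pools and between 11.65 and 15.35 in vehicle-E2 pools. Krt84, a hair keratin, fell (-0.46 ± 0.13, adjusted p = 0.0256), a call lost without vehicle-vehicle replicate 1 (-0.26, adjusted p = 0.186), BPA-vehicle replicate 1 (-0.42, adjusted p = 0.0703) or BPA-vehicle replicate 2 (-0.45, adjusted p = 0.0611), and differed by 4.41. Slco4a1, an organic anion transporter, fell (-0.63 ± 0.15, adjusted p = 0.012; without vehicle-vehicle replicate 1, -0.58, adjusted p = 0.0739) and differed by 3.20.

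Several genes rose without estradiol and were lower than their controls under it. Ret, a receptor tyrosine kinase, had 7.90, 7.91 and 7.79 in BPA-vehicle pools, against 6.22 and 6.09 in vehicle-vehicle pools (1.71 ± 0.10, adjusted p = 5.93e-06), with -1.54 under estradiol and a difference of 3.25; both probes rose. Wdr92, a WD repeat protein, rose by 1.74 ± 0.09, adjusted p = 4.34e-06 with 1 of 2 probes, against -1.70 under estradiol, a difference of 3.44. Padi2, which citrullinates proteins, rose by 1.01 ± 0.12, adjusted p = 0.000345, against -2.53, a difference of 3.54; 3 of its 4 probes rose and 1 fell. Fam3b, a secreted cytokine-like protein, rose by 0.75 ± 0.19, adjusted p = 0.0153 (without vehicle-vehicle replicate 1, 0.65, adjusted p = 0.102), against -2.40, a difference of 3.15. Greb1 belongs here too, with 0.89 without estradiol, -0.82 under it and a difference of 1.71. Pgr rose without estradiol, and under estradiol its change was 0.03, a difference of 0.99. In the group means, Pgr stood at 9.27 in BPA-vehicle, 9.46 in BPA-E2, 9.43 in vehicle-E2 and 8.26 in vehicle-vehicle pools.

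Over all 16272 genes and probes the difference test called 15.6%, with 1253 above 0 and 1280 below. The counts by list are to be read beside that share. In the macrophage list 11 of 17 genes had a difference below 0, that is, a more negative change without estradiol, and 0 above; in antigen presentation these were 14 and 0 of 19. In complement and acute-phase genes 10 differed below 0 and 3 above, of 21. Among late secretory genes it was the reverse, with 14 of 25 above 0 and 2 below. Of 16 mitosis genes 11 differed above 0 and 0 below, and 13 of them fell under estradiol. Ribosome biogenesis genes rose under both injections (22 and 21 of 26), and the difference was called in 2. Among reticulum chaperones 9 of 21 rose under estradiol, and in 9 the difference was above 0.

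**Figure D5:**
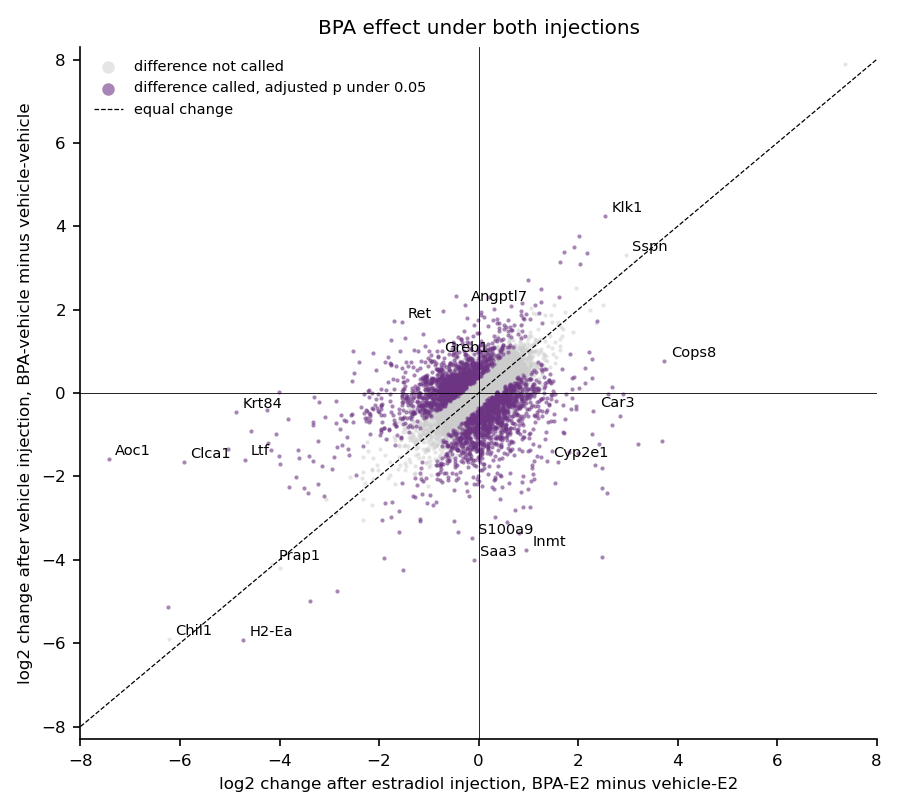
Log2 change after vehicle injection, BPA-vehicle minus vehicle-vehicle (vertical axis), against log2 change after estradiol injection, BPA-E2 minus vehicle-E2 (horizontal axis), 1 point per tested gene or probe; purple points had a called difference and the dashed line marks equal change. Chil1, Prap1 and Sspn lie near the line, Inmt and Saa3 lie low with little or opposite change under estradiol, and Aoc1 and Clca1 lie far to the left.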

How the data were processed

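Uterine RNA was measured on Illumina bead arrays, 1 litter pool each. Extraction used TRIzol followed by RNeasy columns, and labelling used MessageAmp to make biotin cRNA, per the labels' protocols. The deposited non-normalized values are mean bead signals, a linear intensity per probe, accompanied by p-values of detection, per the file headers. The authors' processed table is also in intensity units; its method is not given in the sources used here, and it served only as an alternative.

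Background correction from the detection p-values and quantile normalization were done by neqc (limma 3.58.1, R 4.3.3, offset 16), on the log2 scale. A probe was kept if its detection p was below 0.05 on 2 or more of the 10 arrays (23942 of 45281), and each symbol was represented by the brightest such probe, giving 12403 genes beside 3869 unnamed probes. Group means of the 4 groups were fitted together with limma over 10 arrays, with two-sided moderated tests adjusted by Benjamini-Hochberg. The filter, probe choice, fit and calls were tested on simulated log2 values with independent noise and no slide or litter effect. Background correction and normalization were not part of that test. The number of arrays limits the precision.

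Where no array of a group was above background for a gene, the change is a bound: the bright group's mean against, per array of the dim group, the higher of the lowest detected signal and the probe's own. Marker sums add linear normalized intensities.

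Members and lists were chosen with earlier results of these data known. The naming rule took the 15 largest changes in each direction with an informative symbol, up to 4 called genes per list, the 10 largest called differences in each direction, and genes of interest. Same-numbered arrays of an exposure come from 1 litter, per the labels, so they are paired between injections. Deviations of paired arrays correlated at -0.0409 to 0.0222, and litter was tried as a random replicate block (statmod 1.5.0). Further settings tried were raw signals without background subtraction, cyclic loess, the authors' table, looser and stricter filters, every probe on its own, a variance trend, weights per array, only the 5 arrays compared, and single arrays omitted in turn. matplotlib 3.10.9 drew the figures.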

Additional observations from a re-analysis of the deposited data

Results flagged for a closer look

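The effect of prenatal BPA without estradiol differed from that under estradiol for 106 of the genes named in the report, by limma's test of the difference over all 16272 genes and probes (adjusted p from 3.07e-07 to 0.0448). Values are the log2 change without estradiol minus the log2 change under it. Both changes lie across the same 2 slides and the same litters.

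44 genes rose without estradiol and had a difference above 0. The most distant from 0 were Padi2 (3.54), Wdr92 (3.44), Ret (3.25), Fam3b (3.15), Tmprss11a (2.77), Hsd11b2 (2.47), Angptl7 (2.39), Zfp985 (2.08) and Klk1b26 (1.74). Then came Slc6a13 (1.73), Greb1 (1.71), Klk1 (1.70), Col23a1 (1.67), Crabp2 (1.65), Klk1b27 (1.58), Scgb1c1 (1.51), Ihh (1.48) and Krt7 (1.44). These were followed by Gadd45gip1 (1.29), Klk1b21 (1.23), Klk1b5 (1.19), Atp2a1 (1.12), Egr2 (1.05), Hspa1a (1.03), Myocd (1.03), Esrp1 (1.01) and Arntl (1.01). After these stood Pgr (0.99), Creld2 (0.94), Bpifb5 (0.92), Rrp12 (0.91), Aldh1a2 (0.90), Hspa5 (0.89), Mad2l1 (0.86), Hsph1 (0.85) and Hoxa10 (0.81). Next were Aldh1a1 (0.75), Dnajc3 (0.66), Cald1 (0.62), Acta1 (0.56), Msmo1 (0.53), Sdf2l1 (0.48), Sqle (0.46) and Egr1 (0.41). 49 genes fell without estradiol and had a difference below 0. The most distant from 0 were Inmt (-4.72), Saa3 (-3.92), S100a9 (-3.35), Mmp10 (-3.28), Cyp2e1 (-3.01), Pamr1 (-2.93), Mzb1 (-2.87), Car3 (-2.74) and Cstdc4 (-2.72). Then came Mmp11 (-2.72), S100a8 (-2.58), Irf9 (-2.27), Wnt2 (-2.14), Mmp3 (-2.12), Slc5a8 (-2.05), Slc26a4 (-1.91), Irs2 (-1.81) and Sox4 (-1.79). These were followed by Serpina1b (-1.73), C2 (-1.60), Dmbt1 (-1.60), Lyz2 (-1.54), Pparg (-1.54), Cidec (-1.53), Dbp (-1.45), Per3 (-1.43) and H2-Ab1 (-1.43). After these stood H2-Q7 (-1.39), Nr1d1 (-1.37), Igf1r (-1.34), H2-Aa (-1.22), Cdkn1c (-1.20), H2-Ea (-1.20), Aif1 (-1.18), Cldn4 (-1.12) and Aldoc (-1.12). Next were Rspo3 (-1.11), Hdc (-1.07), Wnt4 (-0.98), Fcgr3 (-0.95), Gadd45b (-0.93), Ifit3 (-0.84), Vcam1 (-0.75), Rsad2 (-0.72) and Dkk3 (-0.70). Smaller still were Klf9 (-0.69), Ccn2 (-0.53), Fzd7 (-0.43) and Timp2 (-0.40). 12 genes fell without estradiol and had a difference above 0. The most distant from 0 were Aoc1 (5.84), Krt84 (4.41), Clca1 (4.28), Arg1 (3.68), Slco4a1 (3.20), Ltf (3.10), Lox (1.83), Retnlg (1.67) and Cfi (1.56). Then came Sprr2d (1.12), Lum (0.58) and Cp (0.50). 1 gene rose without estradiol and had a difference below 0. It was Cops8 (-2.96). No explanation of these differences was tested.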

How the results depend on the processing

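The number of genes and probes called without estradiol, 5067, was 3959 to 6438 under the other processing choices and 3429 to 5054 when single arrays were left out, lowest without vehicle-vehicle replicate 1. Under estradiol the count of 5037 became 4470 to 6349 and 3445 to 5058, and for the difference of the effects 2533 became 2050 to 3493 and 1806 to 2255. With litter as a random replicate block the counts were 5064, 5037 and 2565, and no call of a named gene without estradiol changed. Cyclic loess moved the split of calls without estradiol to 2065 higher and 2889 lower. No called gene named in the report changed direction under any of these settings; the uncalled Ezh2 turned to -0.135 without vehicle-vehicle replicate 1 and -0.024 without BPA-vehicle replicate 2. Esr1 (log2 0.37, adjusted p = 0.0212), Hoxa11 (adjusted p = 0.0159) and Isg15 (adjusted p = 0.00856) passed with no background correction, and all 3 also passed in the authors' table (adjusted p = 0.0199, 0.0156 and 0.00871). Hoxa11 (adjusted p = 0.00629) and Isg15 (adjusted p = 0.0113) passed with a variance trend and robust estimation, and Isg15 with cyclic loess (adjusted p = 0.0469). With no background correction the list medians of neutrophil and mast cell markers were nearer 0. In a fit of the 5 compared arrays alone Wnt4 (adjusted p = 0.0626) and Krt84 (adjusted p = 0.0708) were not called. Precision is limited by 3 and 2 arrays and by signal over background. Exposure and slide cannot be told apart under any setting.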

Other observations

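Across the 16272 genes and probes, BPA-vehicle arrays correlated at 0.9829 to 0.9848 with vehicle-E2 arrays and at 0.971 to 0.9731 with vehicle-vehicle arrays. This is a description over genes, which are not replicates, and the BPA-vehicle and vehicle-E2 arrays lay on different slides.

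A probe with no gene symbol in the tables used here, ILMN_1251419, chosen after its values were seen, measured 13.16, 13.21 and 13.07 in BPA-vehicle pools, against 4.96 and 5.55 in vehicle-vehicle pools. Its log2 change was 7.90 without estradiol and 7.37 under it, and the difference was not called (adjusted p = 0.148); it was above background on 1 of the 2 vehicle-vehicle arrays. In all, 25 genes and probes, Sspn among them, were above background on all 6 BPA arrays and on 0 of the 4 vehicle arrays. The reverse held for 17, among them Dmbt1, Slc5a8 and H2-Aa.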
